A study of Mus musculus with 2 samples.

Results

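The binding of the transcription factor IRF4 (interferon regulatory factor 4) was examined at 7 chemokine genes that B cells can transcribe: Ccl3, Ccl4, Ccl5, Ccl17, Ccl22, Cxcl9 and Cxcl10. The genes were taken by name, with earlier results of these data known. All 7 were found among 21631 protein-coding genes of chromosomes 1 to 19 and X in the RefSeq annotation of GRCm38 (mm10). The data are lists of peaks from chromatin immunoprecipitation and sequencing (ChIP-seq) with an IRF4 antibody in CH12.LX, an immortalized B-cell lymphoma line from a female mouse of strain B10.H-2aH-4bp/Wts. The series holds 1 group, untreated as far as the labels say, with 2 samples numbered as biological replicates, so there is no comparison of conditions and no test between groups. A single tumour-derived line, which the labels do not call stimulated, limits what the peaks say about normal B cells.

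Chemokines are small secreted proteins that steer leukocytes through receptors coupled to G proteins. CCL3 and CCL5 act on CCR1, and activated B cells release CCL3 and CCL4 after antigen receptor signalling. CCL17 and CCL22 are the ligands of CCR4 on helper and regulatory T cells, and CXCL9 and CXCL10, induced by interferons, are ligands of CXCR3. IRF4 binds DNA weakly alone and joins partner factors on composite sites, with ETS proteins such as PU.1 on the ETS-IRF composite element (EICE) and with BATF and JUN on AP-1-IRF elements, while tandem IRF sites resemble the interferon-stimulated response element.

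The summits, the highest points of peaks, were taken from the optimal list of 44058 peaks that the depositors selected from both replicates by the irreproducible discovery rate (IDR). A summit was assigned to a gene when it lay in the gene body or within 10 kb of either end. This gave 19 summits, counted once where windows overlapped. The signal is the value the authors' peak caller gave each peak, on a scale not stated, and ranks are positions by signal in the optimal list. The replicates' values come from their own relaxed lists of 215095 and 300000 peaks, at the nearest summit within 100 bp. The depth behind the peaks is unknown, no control sample was used here, and the spread between the replicates may be technical, since the labels do not say whether the cultures were separate.

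The sequence under 6 of the peaks described below is shown first, the strongest of Ccl5 and 5 with pattern matches. No mm10 genome was used, so windows of 50 bases on either side of a summit come from a separate deposited list of 27671 peaks on mm9 and the mm9 reference, written 5′ to 3′ on the strand of the gene. Capitals mark matches on either strand to 8 patterns: EICE (GGAANNGAAA), the tandem IRF site (GAAANNGAAA), AP-1-IRF elements with adjoining sites (GAAATGANTCA) or a gap of 4 bases (TTTCNNNNTGANTCA), AP-1 (TGANTCA), NF-kB, STAT (TTCNNNGAA) and an ETS-IRF word of 8 bases (GGAAGTGA). AP-1-IRF matches also count as AP-1.
Ccl3, 333 bp upstream, chr11:83463140-83463240: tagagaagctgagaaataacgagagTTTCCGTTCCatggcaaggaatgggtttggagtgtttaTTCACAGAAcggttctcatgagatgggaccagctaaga
Ccl5, 2895 bp upstream, chr11:83346865-83346965: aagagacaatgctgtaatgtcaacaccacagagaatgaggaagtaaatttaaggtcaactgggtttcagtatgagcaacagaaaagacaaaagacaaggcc
Ccl5, 4284 bp upstream, chr11:83348254-83348354: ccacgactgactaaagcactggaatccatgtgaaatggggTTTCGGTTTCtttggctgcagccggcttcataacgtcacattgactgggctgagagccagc
Ccl17, 7866 bp upstream, chr8:97326437-97326537: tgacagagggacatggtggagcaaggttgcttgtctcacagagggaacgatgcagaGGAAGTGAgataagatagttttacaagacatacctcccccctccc
Ccl22, 9720 bp upstream, chr8:97259720-97259820: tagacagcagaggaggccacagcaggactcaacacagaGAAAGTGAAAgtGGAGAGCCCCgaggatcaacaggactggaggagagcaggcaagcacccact
Ccl22, 3654 bp upstream, chr8:97265786-97265886: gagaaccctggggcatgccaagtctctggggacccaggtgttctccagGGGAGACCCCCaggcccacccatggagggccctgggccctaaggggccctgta

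The promoters of Cxcl10 and Ccl22 each held a strong mm10 summit. They are shown as the 250 bases before the gene start, from RefSeq on GRCm38.p6, on the strand of the gene, with the same marking.
Cxcl10 promoter, chr5:92348890-92349139: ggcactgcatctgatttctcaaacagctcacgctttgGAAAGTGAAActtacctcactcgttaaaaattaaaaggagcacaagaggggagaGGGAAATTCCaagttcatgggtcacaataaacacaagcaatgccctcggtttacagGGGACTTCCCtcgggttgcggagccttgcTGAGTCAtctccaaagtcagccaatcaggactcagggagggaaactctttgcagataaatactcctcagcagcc
Ccl22 promoter, chr8:94745434-94745683: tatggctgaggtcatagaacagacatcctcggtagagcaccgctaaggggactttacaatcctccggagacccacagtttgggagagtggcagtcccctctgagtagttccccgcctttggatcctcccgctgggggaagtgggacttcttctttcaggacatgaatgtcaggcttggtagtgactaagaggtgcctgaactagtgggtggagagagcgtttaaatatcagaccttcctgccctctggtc

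All 7 genes had an optimal summit by this rule, against 62.3% of all protein-coding genes. The members are mostly short, and among 7741 genes with a body under 10 kb the share was 44.8%. Within that class it was 66.6% on chromosome 11, where Ccl3, Ccl4 and Ccl5 lie, 54.8% on chromosome 8, where Ccl17 and Ccl22 lie, and 49.6% on chromosome 5, where Cxcl9 and Cxcl10 lie. The higher share on chromosome 11 goes with 3.92 optimal summits per 100 kb there, against 1.55 on chromosome 8 and 1.62 on chromosome 5, and its part in the counts at Ccl3, Ccl4 and Ccl5 was not tested. In the stricter conservative list all 7 genes also had a summit, against 57.4% of all genes, and 17 of the 19 summits were the same intervals, against 72.3% of all optimal peaks. At least 3 summits were found at 6 of the 7 genes, of which Ccl3 and Ccl4 share theirs. This compares with 28.8% of all protein-coding genes and 15.7% of the genes under 10 kb, a class that leaves out Ccl4 (16060 bp).

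**Figure D1:**
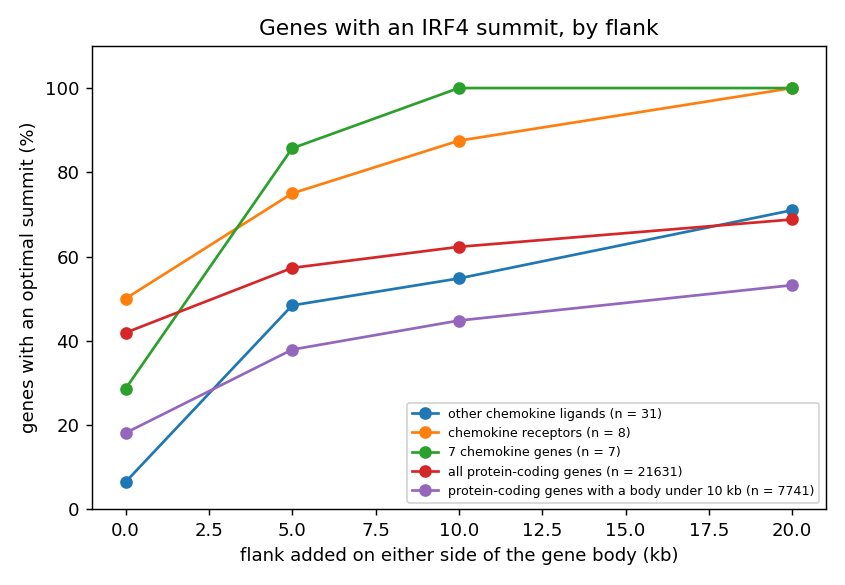
Share of genes with an optimal summit (vertical axis, percent) in the gene body or within a flank on either side (horizontal axis, kb), for the 7 genes, the other chemokine ligands, the chemokine receptors, all protein-coding genes and those with a body under 10 kb. For the body alone the 7 genes lie at 28.6%, all genes at 41.9% and genes under 10 kb, without Ccl4, at 18.1%. With 5 kb the line of the 7 genes reaches 85.7% and with 10 kb 100%, above every other line.

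With no flank, 2 of the 7 genes held a summit (28.6%), below the 41.9% of all genes. The share was 18.1% among genes under 10 kb, a class that leaves out Ccl4. Most summits lay in the flanks, which are longer than most of the gene bodies. The genes with a summit in the body were Ccl22, with 1, and Ccl4, whose RefSeq body reaches back over the neighbouring Ccl3. The summit in the body of Ccl4 is the one 312 bp upstream of the start of Ccl3. Among the members under 10 kb, only Ccl22 held a summit in its body. Within 1 kb of the gene start, 3 genes held a summit (Ccl3, Ccl22 and Cxcl10), against 31.9% of all genes with a known strand, which is near the background for so few genes. The summit farthest from a gene body that the rule took was 9801 bp upstream of Ccl22, with a signal of 53.8. The nearest one left out was 11315 bp past the end of Cxcl9, with a signal of 61.1, at the start of Sdad1.

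By the signal of their strongest summit the genes ran from Ccl5 (220.1) over Cxcl10 (141.5), Ccl22 (110.9), Ccl17 (59.3) and Cxcl9 (46.3) to the summit shared by Ccl3 and Ccl4 (45.6). The median of all optimal peaks was 41.4 and the 90th percentile 116.0. Replicate 1 gave the same order at these summits. In replicate 2 the last places were exchanged, with 28.0 at Ccl3 and 22.5 at Cxcl9, so those neighbours in the order do not differ beyond the spread of the replicates. A summit in the strongest 10% of the list was present at Ccl5 and Cxcl10, so at 2 of 7 genes. Among genes under 10 kb, a class that leaves out Ccl4, the share was 5.43%. The share over all protein-coding genes was not calculated, so this contrast covers short genes only.

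**Figure D2:**
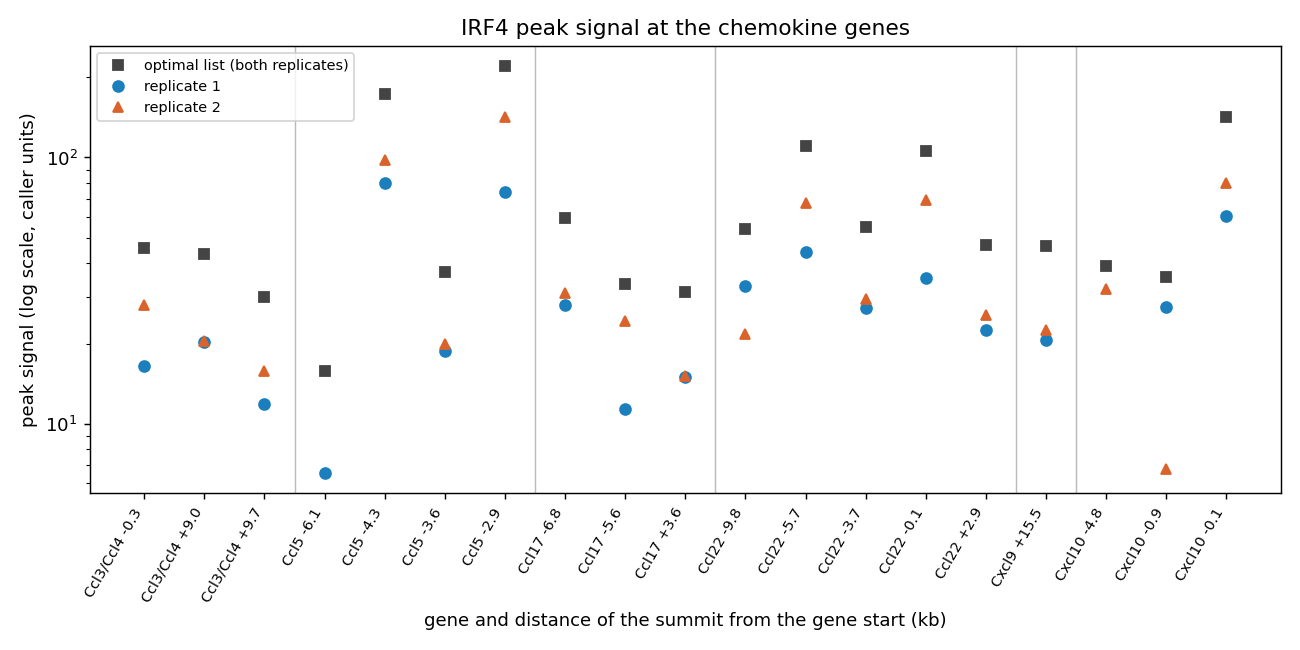
Peak signal (vertical axis, log scale, units of the peak caller) at the 19 summits, ordered by gene and by distance from the gene start (horizontal axis, kb), in the optimal list and at the matched summit of each replicate. The summits of Ccl5 at 2899 and 4283 bp upstream and of Cxcl10 at 125 bp upstream are the highest, and the smallest value is the replicate 1 signal of 6.55 at Ccl5.

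Among Ccl3, Ccl4 and Ccl5, Ccl5 carried the strongest binding. Ccl5 encodes a chemokine that attracts T cells and monocytes. Its gene lies on the minus strand of chromosome 11 (83525778 to 83530518, mm10), and 4 summits lay upstream of it, all inside the long noncoding RNA gene Gm32650, whose body spans Ccl5. The strongest was 2899 bp upstream (chr11:83533247-83533586) with a signal of 220.1 in the optimal list, 74.2 in replicate 1 and 142.5 in replicate 2, rank 1038. The next, 4283 bp upstream (chr11:83534706-83534844), had 173.0 in the optimal list, 80.3 in replicate 1 and 98.0 in replicate 2, rank 1958. Both replicates thus placed these sites high, but in opposite order.

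Between these sites of Ccl5 lay a summit with a signal of 37.0, with 18.8 and 19.9 in the replicates. The fourth, 6147 bp upstream, was weak (15.8), had 6.55 in replicate 1 and no replicate 2 summit within 100 bp, and was absent from the conservative list. Within 200 bp replicate 2 had a summit of 11.9. At the start of Ccl5 itself there was no optimal summit. Within 1 kb of it the relaxed lists held peaks of 6.78 in replicate 1, 5.90 in replicate 2 and 10.9 in the relaxed list pooled from both. In the mm9 list, also made from both replicates, no counterpart of the weaker summits was found within 10 kb of Ccl5. The peaks there lay 2895 and 4284 bp upstream of the start (signals of 310.1 and 261.6). The nearer of them held none of the 8 patterns, also within 100 bp. The farther held a tandem IRF site (GAAACCGAAA, on the strand opposite to the gene) ending 1 base before the summit, a pattern that 5.79% of all mm9 peaks had within 50 bp.

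Ccl3 and Ccl4, the genes of the macrophage inflammatory protein chemokines, lie on opposite strands, and every summit of Ccl4 was also one of Ccl3. The RefSeq body of Ccl4 (83648624 to 83664683, 16060 bp) overlaps Ccl3 (83647843 to 83649378). In the mm9 GENCODE annotation Ccl4 is 2100 bp long and apart from Ccl3, and no mm9 peak lay within 10 kb of it. The count at Ccl4 therefore rests on the longer gene model.

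The strongest of the shared summits was 312 bp upstream of the start of Ccl3 (chr11:83649520-83649859), with a signal of 45.6 in the optimal list, 16.4 in replicate 1 and 28.0 in replicate 2. The others lay 8991 and 9700 bp from that start, past the end of Ccl3, with 43.5 (20.2 and 20.5 in the replicates) and 30.0 (11.9 and 15.8). All 3 were in the conservative list, and none reached the strongest 10%. On mm9 the Ccl3 promoter peak was 333 bp upstream, with a signal of 66.0, just below the mm9 median of 70.1. It held an EICE (GGAACGGAAA, on the opposite strand), 16 to 25 bases before the summit, and a STAT site (TTCACAGAA) 13 to 21 bases past it. EICE was within 50 bp of 8.68% of all mm9 summits and the STAT site of 3.52%. The 250 bases before the start in the RefSeq promoter of Ccl3, which end short of the mm10 summit, held none of the patterns.

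Ccl22 had the most summits of the 7 genes. It encodes a ligand of CCR4 that draws regulatory T cells, and it lies on the plus strand of chromosome 8 (94745684 to 94751388, mm10). It had 5 summits, all in the conservative list. As many or more were found at 12.5% of all protein-coding genes and 4.61% of those under 10 kb. The strongest lay 5670 bp upstream (chr8:94739844-94740183) with 110.9 in the optimal list, 44.1 in replicate 1 and 67.2 in replicate 2. Nearly as strong was the summit 136 bp upstream of the start (chr8:94745378-94745717), with 105.3, 35.2 and 69.2, so the replicates differ on which of the pair is higher.

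The remaining summits of Ccl22 were 3720 bp upstream (54.8, with 27.2 and 29.5 in the replicates), 9801 bp upstream (53.8, with 33.0 and 21.7) and 2851 bp inside the gene (46.8, with 22.4 and 25.6). On mm9 there were likewise 5 peaks, with signals of 170.0 at 46 bp upstream, 163.9 at 5568 bp, 53.3 at 3654 bp and 41.9 at 9720 bp upstream and 59.5 in the intron, where the median of the mm9 list was 70.1. The peak at 9720 bp was among the weakest of that list (rank 27315 of 27671). An NF-kB match was found in 3 of the 5 within 50 bp of the summit, against 5.70% of all mm9 peaks. The match 3654 bp upstream (GGGAGACCCC) lay over the summit, that at 5568 bp upstream (GGGGCACCCC) was 36 to 45 bases away, and the peak 9720 bp upstream had one (GGGGCTCTCC) that began at the summit. That last peak also held a tandem IRF site (GAAAGTGAAA) 3 to 12 bases before its summit. The intronic peak held an EICE (GGAACTGAAA) and an AP-1 site (TGACTCA). Neither the mm9 promoter peak nor the 250 bases of the Ccl22 promoter shown above held any of the patterns.

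Ccl17, the gene of the other CCR4 ligand, was bound less strongly than Ccl22, which lies some way off on the same chromosome with the chemokine gene Cx3cl1 between them. Ccl17 (94809380 to 94812038, plus strand) had 3 summits, all in the conservative list. That at 6771 bp upstream (chr8:94802439-94802778) had a signal of 59.3 in the optimal list, 27.8 in replicate 1 and 31.0 in replicate 2. The other upstream summit, at 5620 bp, had 33.5 (11.4 and 24.3), and that 934 bp past the gene had 31.2 (15.0 and 15.1). None lay within 1 kb of the start, where the relaxed lists held peaks of 6.31 in replicate 1 and 8.71 in replicate 2. The strongest peak there in the pooled relaxed list had 15.7. The RefSeq promoter table places the start of Ccl17 at another position (94810453), and the 250 bases before it held a STAT match (TTCTTTGAA) 91 to 99 bases from that start. The STAT pattern was in 6.64% of all RefSeq promoters searched. On mm9 the upstream peaks were present, 7866 and 6702 bp before the mm9 start, the farther with the word GGAAGTGA 6 to 13 bases past the summit and the nearer with an AP-1 site (TGAGTCA) 25 to 31 bases past it. Their signals were 62.3 and 45.8, both below the mm9 median of 70.1. The word was within 50 bp of 6.81% of all mm9 summits and the AP-1 site of 16.0%.

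The stretch from 10 kb before Ccl22 to 10 kb past Ccl17 (86.4 kb) held 19 optimal summits, of which 8 belonged to these genes by the rule. This is 22.0 per 100 kb, against 1.55 over chromosome 8, an average that includes stretches without genes. Cx3cl1, which encodes a membrane-bound chemokine, had 11 summits within 10 kb, the strongest with 81.4 in the optimal list and 36.9 and 44.3 in the replicates. The maximum of the stretch was the summit of 110.9 at Ccl22.

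**Figure D3:**
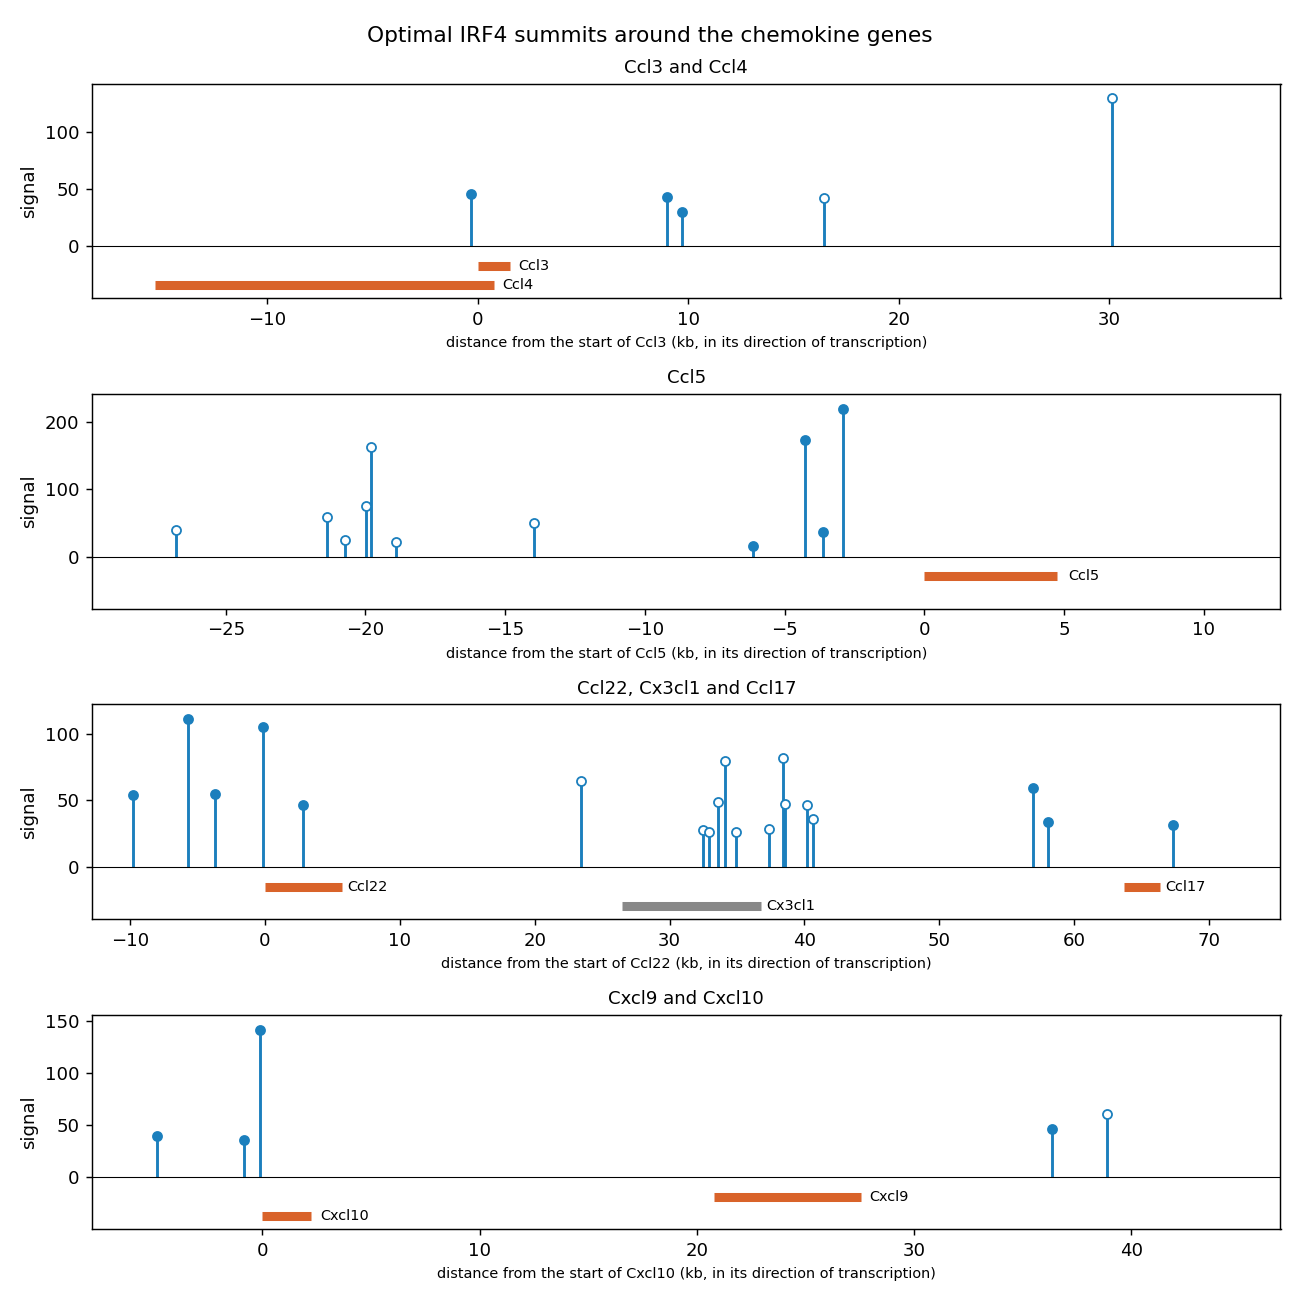
Signal of optimal summits (vertical axis, units of the peak caller) by distance from the start of Ccl3, Ccl5, Ccl22 or Cxcl10 (horizontal axis, kb, positive in the direction of transcription), with bars for the RefSeq bodies of the 7 genes (orange) and Cx3cl1 (grey). Filled circles are the 19 summits within 10 kb of a gene body and open circles lie farther off. The Cxcl10 promoter holds one tall summit of 141.5, whereas the summits of Ccl5 stand 2899 to 6147 bp upstream of its start.

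Of the ligands of CXCR3, Cxcl10 was bound at its promoter and Cxcl9 was not. Cxcl10, a chemokine gene induced by interferons and by NF-kB, lies on the minus strand of chromosome 5 (92346638 to 92348889, mm10). The summit 125 bp upstream of its start (chr5:92348844-92349183) had a signal of 141.5 in the optimal list, 60.5 in replicate 1 and 80.4 in replicate 2, rank 3045. This was the highest of the 4 summits that lay within 1 kb of the start of one of the genes.

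The promoter sequence of Cxcl10 shown above held matches of 3 kinds. A tandem IRF site (GAAAGTGAAA) lay 204 to 213 bases before the start, NF-kB sites lay at 150 to 159 (GGGAAATTCC) and at 94 to 103 (GGGACTTCCC), and an AP-1 site (TGAGTCA) lay at 68 to 74. The mm10 summit fell between the NF-kB sites, 25 and 22 bases from them, and was 51 bases from the AP-1 site and 79 from the tandem IRF site. Over 21045 RefSeq promoters of protein-coding genes, the same 250 bases held the tandem IRF pattern in 2.98%, the NF-kB pattern in 4.22% and the AP-1 pattern in 6.17%. The mm9 peak, with its summit 146 bp upstream and a signal of 161.1, held only the farther NF-kB site within 50 bp and the tandem IRF, NF-kB and AP-1 patterns within 100 bp. A match is a description of the letters and does not show which factor was bound.

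Cxcl10 had further summits with uneven replicates. The one 854 bp upstream (35.6) had 27.4 in replicate 1 and 6.78 in replicate 2 and was absent from the conservative list. The one 4837 bp upstream (39.2) had 32.1 in replicate 2 and no replicate 1 summit within 100 bp, with 11.3 in replicate 1 within 200 bp. All 3 summits of Cxcl10 lie inside Art3, a gene of an ADP-ribosyltransferase family whose body spans Cxcl10 on the opposite strand. On mm9 a second peak was found 807 bp upstream (46.4), with an AP-1 site 42 to 48 bases past its summit.

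Cxcl9, also induced by interferon gamma, had 1 summit, 8790 bp past its end and 15538 bp from its start (chr5:92312371-92312710). Its signal was 46.3 in the optimal list, 20.7 in replicate 1 and 22.5 in replicate 2, and the nearest gene start was that of Sdad1, 2517 bp away. Within 1 kb of the start of Cxcl9 replicate 1 had no peak in its relaxed list, replicate 2 had one of 8.07 and the pooled relaxed list one of 11.6. With 5 kb flanks, within 10 kb of the start, or on mm9, no peak was assigned to Cxcl9. Its 250 promoter bases held none of the patterns.

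Among themselves the 13 mm9 peaks within 10 kb of the genes, at 5 of the 7, had varied sequences. An NF-kB match was present within 50 bp of the summit in 4 of them, against 5.70% of all mm9 peaks. All but 1 of these peaks were at Ccl22. AP-1 was in 3 (16.0% of all mm9 peaks), EICE in 2 (8.68%) and the tandem IRF site in 2 (5.79%). STAT and the word GGAAGTGA were in 1 each (3.52% and 6.81%). AP-1-IRF elements of either form were in none of the 13, and in 1.13% and 1.12% of all mm9 peaks. At least 1 pattern was present in 10 of 13, against 38.8% of all mm9 peaks. Within 25 bp of the summit the count was 6 of 13, against 25% of all mm9 peaks, and within 100 bp it was 10 of 13, against 49.0%.

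At the 17 member summits matched in both replicates, 15 had a higher signal in replicate 2, as had 82.8% of the 37635 optimal peaks matched in both. Their median log2 ratio (replicate 2 over replicate 1) was 0.19, against 0.53 over all matched peaks. Over the 36261 matched peaks in the same range of signal, 10% to 90% lay from -0.23 to 1.38, and 2 of the members' 17 fell outside, at 854 bp upstream of Cxcl10 (-2.01) and 9801 bp upstream of Ccl22 (-0.61). The highest ratio was 1.09, at 5620 bp upstream of Ccl17.

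**Figure D4:**
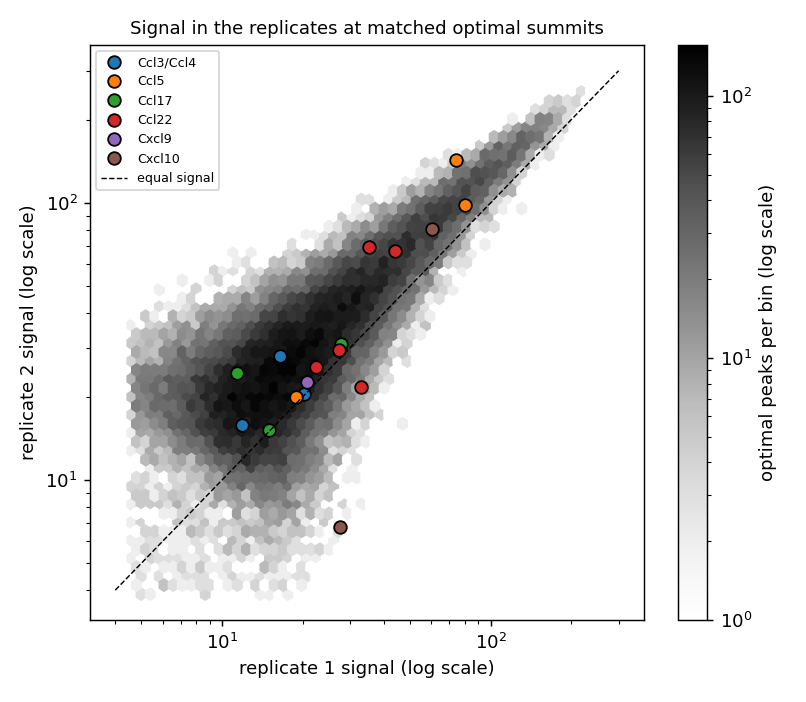
Signal in replicate 1 (horizontal axis, log scale) against replicate 2 (vertical axis, log scale) at 37635 matched optimal summits (grey bins, darker for more peaks), with the 17 matched summits of the chemokine genes as coloured points and a dashed line of equal signal. The point far below the line is Cxcl10 at 27.4 and 6.78, and the highest is Ccl5 at 74.2 and 142.5.

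The other 31 chemokine ligand genes had a summit by the same rule in 17 cases (54.8%), a share between the 44.8% of genes under 10 kb and the 62.3% of all genes, so near the background. Strongest signals above the median of the list were found at Ccl6 (403.5, with 184 and 222 in the replicates), Ccl24 and Ccl26 (96.4, 1 shared summit), Ccl25 (88.9), Cx3cl1 (81.4), Ccl1 (74.4), Cxcl16 (61.8) and at Cxcl5, Pf4 and Ppbp (55.5, 1 shared summit). Genes with no summit included Cxcl13 and Ccl19, which guide lymphocytes in follicles and T cell zones, as well as Cxcl1, Cxcl2 and Cxcl12. The pseudogene Cxcl11, counted among the 31 and lying beside Cxcl10, had 2 summits, both also counted at Cxcl10. They were those of 39.2 and 35.6, at 4837 and 854 bp upstream of Cxcl10. As a pseudogene, Cxcl11 is not among the protein-coding genes behind the shares.

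Of 8 genes of receptors for these chemokines and of atypical or related receptors, 7 had a summit (87.5%, against the 62.3% of all genes), and Ackr1 had none. Ccr4, the receptor of CCL17 and CCL22, had a strongest signal of 145.9 (52.3 and 89.4 in the replicates), and Ccr1 had 198.3 (91.6 and 105). Ackr2, a scavenger of CC chemokines, had 113.8, Ccrl2 92.6 and Ccr3 73.5, while Cxcr3 had a single summit of 33.9, below the median of the list. Of 12 genes of NF-kB, STAT and IRF factors that act on chemokine genes, 11 had a summit (91.7%, against the 62.3% of all genes) and Rela had none.

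The labelled cell type could not be checked by expression, since peaks show binding. All 7 genes of a B cell marker list had a summit, with 4 of 6 T cell and 3 of 5 macrophage marker genes, the latter shares being near the 62.3% of all genes.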

How the data were processed

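IRF4 ChIP-seq peaks from 2 replicates of CH12.LX cells were used, as 6 deposited lists. The README files deposited with them trace the relaxed mm10 lists to alignments, the IDR lists to those relaxed lists, and the mm9 list to mm9 alignments from both replicates. Peak caller and aligner: not given in the sources used here. Each peak's signal is the authors' value, used as deposited.

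Each summit was found by adding the deposited offset to the peak's start, and positions are counted from 1. Genes and starts on mm10 came from RefSeq GRCm38, with the strand from the RefSeq promoter table or else from the GENCODE gene of the same symbol (20923 genes had one). Of 16257 genes found in both, 16212 had the same strand. Promoter entries matched 5 of the 7 members, all but Ccl4 and Ccl5. Coordinates were never converted between builds. No test was made, since there is 1 group. The counting and pattern search were tested on simulated data. The members and lists were chosen with earlier results of these data known. Named are the 7 genes with every summit, the gene of the nearest start, and each other chemokine ligand or receptor gene with a summit at or above the median signal; chemokine genes without a summit, Ackr1, Cxcr3, Cxcl11, Rela, Gm32650 and Art3 were named after their values were seen. The values of 1 listed gene are not reported here. Alternatives were other flanks, lists, matching distances and windows. Python 3.11.15, numpy 2.4.6, pandas 2.3.3 and matplotlib 3.10.9 were used.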

Additional observations from a re-analysis of the deposited data

How the results depend on the processing

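With the gene body alone, 2 members had a summit and the number of summits was 2. The median rank of the strongest summit was 42.8% of the list in place of 29.4%. With this setting 2 of the 31 other chemokine ligand genes (6.45%) and 4 of the 8 receptor genes had a summit. The shares for the body alone were 41.9% of all protein-coding genes and 18.1% of those under 10 kb. The other ligands, near the background with 10 kb flanks, thus fell below both shares. Flanks of 5 kb left 11 of the 19 summits and all members but Cxcl9. The mm9 list gave a median rank of 15.6% over 5 members, without Ccl4 and Cxcl9. Patterns within 25 bp of the summit were in 6 of 13 mm9 peaks, against 25% of all mm9 peaks. From replicate 2 or replicate 1 alone, taking as many peaks as the optimal list holds, all 7 members had a summit, with 16 and 20 summits and median ranks of 38.4% and 24.6%. The shares of all genes with a summit in these lists and in the mm9 list were not calculated, so the member counts from them have no background. The conservative list gave 17 summits and 20 kb flanks gave 26. Of 47 alternative ranks of single members, 32 moved by no more than the SD of the replicates. With another flank, the strongest summit of a gene was often the same one of the same list, so its rank could not move. That SD was taken from the ranks in the single replicates, which are themselves among the 47. The count is therefore no measure of how stable the ranks are. The largest move within the optimal list by flank was at Ccl17, from 29.4% to 70.6% with 5 kb. No paired analysis was possible because the series holds 1 group. Depth is unknown and limits the reading of weak or missing peaks.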

Other observations

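Binding continued beyond the 10 kb rule around several of the genes. Upstream of Ccl5, 7 further optimal summits lay within 30 kb of the gene body, the strongest 19792 bp before the start (chr11:83550218-83550314), with a signal of 163.0 in the optimal list, 69.0 in replicate 1 and 89.2 in replicate 2. Past Ccl3, a summit of 129.5 (48.1 and 79.3 in the replicates) lay 28585 bp beyond the gene's end, higher than any of its 3 summits inside the rule. The gene start nearest to that summit was that of Ccl6, 26171 bp away. These sites were looked at after their values were seen.

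Between the windows of Ccl5 and Ccl3 on chromosome 11 stood the strongest chemokine-linked summit, that of Ccl6, a chemokine gene of myeloid cells. It was 2824 bp upstream of the start (chr11:83595801-83596043), with a signal of 403.5 and rank 22 of the 44058 optimal peaks. The interval from 10 kb beyond Ccl5 to 10 kb beyond Ccl4 (159 kb) held 18 optimal summits, of which 7 belonged to Ccl3, Ccl4 and Ccl5. This is 11.3 per 100 kb, against 3.92 over chromosome 11. The interval drawn in the same way around Cxcl9 and Cxcl10 (47.6 kb) held 4, or 8.41 per 100 kb, against 1.62 over chromosome 5.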
